A study of Mus musculus with 2 samples.

Results

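Mir383, Mir346, Mir490, Mir488, Mir592 and Mir582 are 6 of the 2202 miRNA genes counted in small-RNA libraries of the mouse cerebral cortex. They were chosen by gene symbol, as miRNA genes that lie within neuronal receptor or adhesion genes, a rule that names symbols and no measured value. Earlier results of these data were known when the choice was made. Each was identified through its Ensembl identifier in the GENCODE M21 annotation of mm10. The animals were 2 females of strain B6CASTF1/J, aged 2 months, and the tissue was the cerebral cortex of the left side. Mice of this name are F1 hybrids between C57BL/6 and CAST parents. The labels name no altered allele and no agent, and each animal gave 1 library of RNA below 30 nucleotides. Both libraries form a single group, so there is no contrast between conditions, and the questions open to the data are the level of each miRNA and how far the animals differed. The labels number the females separately, although the donor identifier is the same for both; below they are animal 1 and animal 2.

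A miRNA is cut from a hairpin in a longer transcript, and the mature strand guides repression of messenger RNAs that pair with its seed, the bases 2 to 8. A hairpin within an intron on the sense strand can be released from the transcript of its host gene, so that both can be made from one promoter. The hosts here have different roles. Chrm2 encodes the M2 muscarinic acetylcholine receptor, Grm8 a group III metabotropic glutamate receptor, and Grid1 a delta-class glutamate receptor. Astn1 encodes astrotactin, a neuronal adhesion protein used when young neurons migrate along glia. Sgcz encodes zeta-sarcoglycan, a membrane glycoprotein linked to dystrophin, and Pde4d encodes an enzyme that breaks down cyclic AMP. The last of these is neither a receptor nor an adhesion molecule, so for Mir582 the description by host holds only loosely. Sgcz belongs to none of the receptor and adhesion families listed further below, so the same holds for Mir383. Host transcripts were not measured, because the libraries hold short RNA.

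The mature sequences are shown because shared seeds or long shared stretches would tie these genes to others. The RefSeq miRNA table on GRCm38.p6 matched 5 of the 6 genes, all but Mir383, with both arms of each hairpin, 10 mature sequences in all. They are written 5′ to 3′ with the seed in capitals.
mmu-miR-346-5p: uGUCUGCCcgagugccugccucu
mmu-miR-346-3p: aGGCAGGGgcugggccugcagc
mmu-miR-490-5p: cCAUGGAUcuccaggugggu
mmu-miR-490-3p: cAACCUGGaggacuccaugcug
mmu-miR-488-5p: cCCAGAUAauagcacucucaa
mmu-miR-488-3p: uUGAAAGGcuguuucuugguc
mmu-miR-592-5p: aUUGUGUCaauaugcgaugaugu
mmu-miR-592-3p: uCAUCACGuggugacgcaacau
mmu-miR-582-5p: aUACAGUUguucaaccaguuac
mmu-miR-582-3p: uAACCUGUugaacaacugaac

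The 10 seeds of these 5 genes were all different. The nearest pair was miR-490-3p and miR-582-3p, which have 6 of the 7 seed bases in common, the run AACCUG at bases 2 to 7. Against all 1738 mature sequences of the table, 9 of the 10 shared their seed with no other gene. The exception was miR-346-3p, whose seed also occurs in miR-7001-5p (aGGCAGGGugugagcgugagcau). Mir7001 had 0 counts in animal 1 and 1 count in animal 2. In the whole table, 32.0% of mature sequences shared a seed with another gene. The longest stretch that any of the 10 shared with another hairpin of the table was 8 to 11 bases, well short of a whole read. The counts are per gene, so the reads cannot be divided between the 5′ and 3′ arms.

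The hairpins differed in composition. That of Mir346, the most abundant of the 5, and that of Mir582, the least, are shown with both mature arms in capitals.
Mir346: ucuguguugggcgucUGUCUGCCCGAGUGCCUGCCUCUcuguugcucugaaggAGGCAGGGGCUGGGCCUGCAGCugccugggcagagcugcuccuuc
Mir582: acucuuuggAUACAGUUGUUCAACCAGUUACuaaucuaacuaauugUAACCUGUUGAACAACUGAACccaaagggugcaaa

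The Mir346 hairpin of 98 bases was 65.3% G and C, and that of Mir582, with 81 bases, was 37.0%. The median over the 352 hairpins of detected genes with a sequence was 52.2%. Mir490, Mir592 and Mir488 had 47.6%, 43.8% and 42.2%. The predicted minimum folding energy was -49.7 kcal/mol for Mir346 and -34.0 kcal/mol for Mir582, against a median of -35.2 kcal/mol. Mir592, Mir488 and Mir490 had -38.8, -38.7 and -32.3 kcal/mol. Hairpin lengths differ, so the energy per base is given too, with a median of -0.435 kcal/mol. By this measure only Mir346, at -0.507, folded more stably than the median. Mir582, Mir592, Mir490 and Mir488 had -0.420, -0.404, -0.385 and -0.355 kcal/mol per base. Between the arms lay a loop of 15 bases in Mir346 and Mir582 and of 17 in the other 3.

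Their places in the genome, on mm10, were as follows. Mir383 (ENSMUSG00000065457.3) occupies bases 38252133 to 38252202 of chromosome 8, minus strand, in intron 1 of Sgcz. Mir346 (ENSMUSG00000065481.1) occupies bases 34894609 to 34894706 of chromosome 14, plus strand, in intron 2 of Grid1. Mir490 (ENSMUSG00000070075.1) occupies bases 36421742 to 36421825 of chromosome 6, plus strand, in intron 2 of Chrm2. Introns are numbered in the principal transcript that spans the miRNA. All 3 were on the strand of their host and overlapped none of its exons. Of the annotated transcripts, 2 of 2 for Sgcz, 1 of 3 for Grid1 and 2 of 2 for Chrm2 have an intron there.

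Mir488 (ENSMUSG00000070103.2) occupies bases 158505625 to 158505733 of chromosome 1, plus strand, in intron 5 of Astn1. It begins 155 bases after the exon before it, in an intron of 4.38 kb. An antisense transcript, Gm37679, also runs across it on the minus strand. Mir582 (ENSMUSG00000076946.2) occupies bases 109324744 to 109324824 of chromosome 13, plus strand, in intron 3 of the Pde4d transcript Pde4d-209. Of the annotated transcripts, 5 of 11 for Astn1 and 6 of 20 for Pde4d have an intron at the miRNA.

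Mir592 (ENSMUSG00000076067.1) occupies bases 27936655 to 27936750 of chromosome 6, minus strand, and is not purely intronic. In Grm8-202 and 3 other Grm8 transcripts it falls in an intron, number 3 of Grm8-202. In a processed Grm8 transcript, one with no coding sequence, it falls within exon 6, which has 3292 bases. The hairpin starts 918 bases into that exon. The other 5 genes overlap no annotated exon of their host.

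The hosts were long genes. Pde4d spans 1504 kb, Sgcz 1139 kb, Grm8 860.1 kb, Grid1 763 kb, Astn1 330 kb and Chrm2 140 kb, a median of 812 kb. The other 722 miRNA genes in introns of protein-coding genes had hosts with a median of 86.0 kb, and 342 of them had a host above 100 kb, against 6 of 6 here. The 38 other genes of the wider receptor and adhesion list described below had hosts with a median of 280 kb. Of these, 31 had a host above 100 kb. The introns were long as well, at 708 kb in Sgcz and in Pde4d, 219 kb in Grm8, 134 kb in Chrm2 and 123 kb in Grid1. The Astn1 intron was the exception. The median over the members was 177 kb, against 10.8 kb for the other intronic miRNA genes and 85.3 kb for the others of the wider list. This is a description of the genes chosen, and host type entered the choice.

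**Figure D1:**
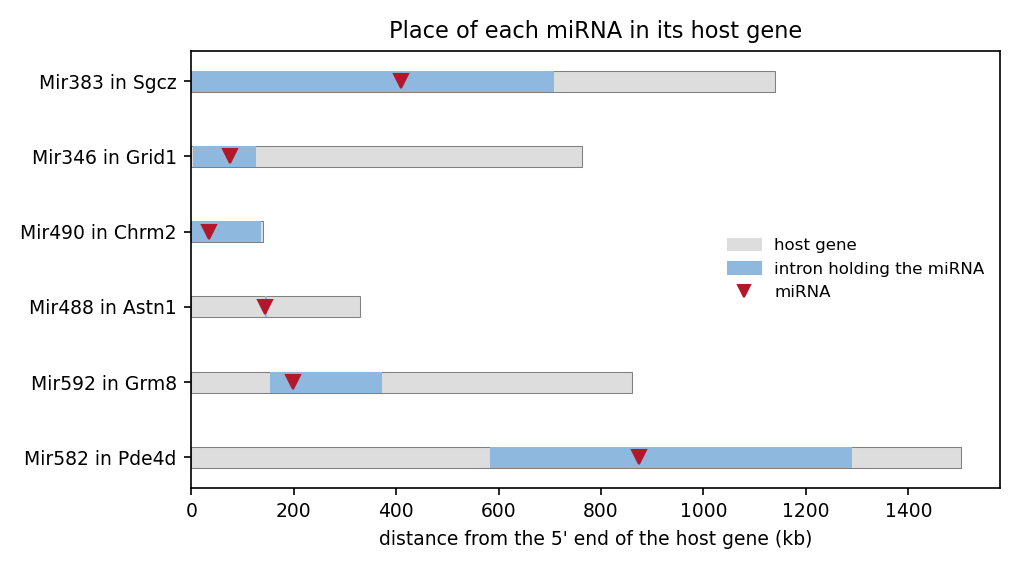
Each bar is a host gene drawn to scale from its 5′ end (x axis, kb), the blue stretch is the intron of the principal transcript that holds the miRNA, and the red triangle is the miRNA. The Sgcz and Pde4d introns of 708 kb stand out, and the Astn1 intron of 4.38 kb is hidden under its triangle.

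None of the 6 belonged to a cluster of miRNA genes. The nearest other miRNA gene was 278 kb away for Mir490 and 579 kb away for Mir582, and between 835 and 4005 kb away for the others. A single further miRNA gene lies in any of the 6 hosts. It is Mir1904, in intron 8 of Pde4d-209, 579 kb downstream of Mir582, and it had 0 counts in both animals. With 0 counts, up to 3 counts are allowed, which is 0.679 CPM for animal 1 and 1.32 CPM for animal 2. CPM is the count scaled to a total of 1000000 counts at miRNA genes.

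The libraries held 4415759 counts at miRNA genes in animal 1 and 2279562 in animal 2, from 13533476 and 10143234 reads. Unmapped reads were 23.4% and 47.1% of these. Intervals and the limit on a count of 0 cover counting error only, since without molecular identifiers PCR copies cannot be told from separate molecules. In a list of 12 brain and neuron miRNA genes, 8 were detected and none was at 0 in both animals. It summed to 54035 CPM in animal 1, against 101561 CPM in animal 2. Without Mir132 the order turned, to 29646 and 21985 CPM. The 4 not detected were the 3 Mir124a genes and Mir9-2, whose copies elsewhere share the mature sequence. The copies Mir9-3, at 45.7 and 41.2 CPM, and Mir9-1, at 14.0 and 5.70 CPM, were detected. Whether shared sequence lowered any of these counts was not tested. Of 9 liver, muscle and heart genes 2 were detected, Mir122 at 60.9 and 36.8 CPM and Mir206 at 23.6 and 16.2 CPM. In this list 6 had 0 counts in both, as did 1456 of all 2202 genes, and it summed to 84.9 and 54.0 CPM. No testis X-cluster gene of 10 was detected. The share detected over all measured genes, for comparison with these lists, was 18.8%. The erythroid genes Mir451a and Mir144 summed to 425 and 53.1 CPM, and the endothelial Mir126a had 6662 and 9727 CPM. The part of these cell types in the members' levels was not tested.

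All 6 miRNA genes were detected in both animals, at 2 CPM or more, from 11.8 CPM on average for the lowest to 6682 CPM for the highest. Of all measured genes 18.8% were detected in this sense, and of the other genes in introns of protein-coding genes 22.3%. The members were chosen with earlier results of these data known, so 6 of 6 is a description and not a test. The order was Mir383, Mir346, Mir490, Mir488, Mir592 and Mir582 in both animals. In bulk tissue, fewer cells that express a miRNA and less of it per cell cannot be told apart. The 6 members' share of counts was 0.973% in animal 1, with exact 95% bounds (Clopper-Pearson) of 0.964 and 0.982%. In animal 2 it was 0.897%, with bounds of 0.885 and 0.910%, and the mean was 0.935% ± 0.0535 (SD, n = 2). Mir383 alone made up 70.7% and 72.3% of the members' counts.

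Mir383, within Sgcz, had 30370 counts in animal 1 and 14785 in animal 2. These are 6878 CPM (exact Poisson 95% interval 6801 to 6955) and 6486 CPM (6382 to 6591), or 6682 ± 277 CPM (SD, n = 2). It ranked 28th and 31st of the 2202 genes. These ranks are among genes as counted. Reads mapping to several places, 37.4% of reads in animal 1 and 25.5% in animal 2, are not part of these counts. The place of miRNAs with several copies in this ranking is therefore uncertain. The animals differed far less than Mir383 differed from the next member.

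Among the receptor hosts, Mir346 of the delta receptor gene Grid1 was the highest. It had 9403 and 4073 counts, or 2129 and 1787 CPM, with a mean of 1958 ± 242 CPM (SD, n = 2). Mir490, of the muscarinic receptor gene Chrm2, had 2246 and 1088 counts, or 509 and 477 CPM, with a mean of 493 ± 22.2 CPM. The glutamate receptor gene Grm8 gave the lowest of these 3: Mir592 had 172 and 122 counts, or 39.0 and 53.5 CPM, with a mean of 46.2 ± 10.3 CPM. The miRNAs of the receptor genes thus differed by far more than the animals did.

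Mir488, of the adhesion gene Astn1, had 739 and 358 counts. These are 167 and 157 CPM, with a mean of 162 ± 7.29 CPM (SD, n = 2). Mir582, of the phosphodiesterase gene Pde4d, was the lowest, with 40 and 33 counts. These are 9.06 CPM (exact Poisson 95% interval 6.47 to 12.3) and 14.5 CPM (9.96 to 20.3), with a mean of 11.8 ± 3.83 CPM. At this depth the level of Mir582 is known only within wide limits, and 2 CPM corresponds to 8.83 counts in animal 1 and 4.56 in animal 2.

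**Figure D2:**
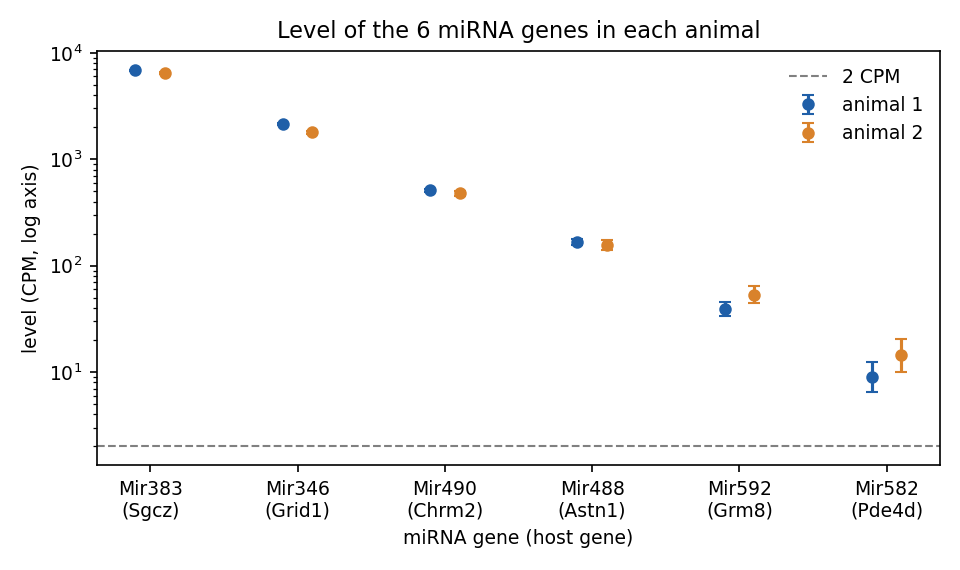
Level of each miRNA gene in CPM (log axis), with its host in parentheses. Points are the 2 animals and bars the exact Poisson 95% intervals; the dashed line marks 2 CPM. No gene's range over the animals overlaps that of its neighbour, from 6682 CPM on average for Mir383 to 11.8 CPM for Mir582.

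Neighbours in this order were separated by similar factors. Mir383 exceeded Mir346 by 3.23-fold in animal 1 and 3.63-fold in animal 2. Mir346 exceeded Mir490 by 4.19-fold and 3.74-fold, and Mir490 exceeded Mir488 by 3.04-fold in both. Mir488 exceeded Mir592 by 4.30-fold and 2.93-fold, and Mir592 exceeded Mir582 by 4.30-fold and 3.70-fold. The lowest bound of any exact 95% interval among these ratios was 2.38, for Mir488 over Mir592 in animal 2. From Mir383 to Mir582 the factor was 759 in animal 1 and 448 in animal 2.

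The miRNA genes most like each member in mean level were the ones just above and just below it among all 2202. For Mir383 these were Mir411 at 6782 ± 1201 CPM and Mir382 at 6396 ± 2.52 CPM (SD, n = 2 here and below). For Mir346 they were Mir335 at 1965 ± 57.6 CPM, in an intron of Mest, and Mir409 at 1942 ± 765 CPM. For Mir490 they were Mirlet7c-1 at 496 ± 77.5 CPM and Mir1224 at 492 ± 156 CPM. Mir488 lay between Mir331 at 164 ± 14.1 CPM and Mir193b at 162 ± 24.9 CPM. Mir592 lay between Mir24-1 at 46.6 ± 4.52 CPM and Mir6769b at 44.3 ± 3.05 CPM. Mir582 lay between Mir344g at 12.0 ± 10.9 CPM and Mir7688 at 11.8 ± 5.09 CPM. The range over the animals overlapped that of the member for 11 of these 12 genes, the exception being Mir382. Mirlet7c-1 and Mir24-1 have near-identical copies elsewhere, so their counts are uncertain.

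Between the animals, Mir346 and Mir383 were higher in animal 1 and Mir592 in animal 2 beyond counting error, and Mir490, Mir488 and Mir582 lay within it. No point estimate among the 6 was 2-fold apart, against a background of 13.5% of the 415 detected genes, a share too low for 0 of 6 to set them apart. With 1 library per animal, animals and library preparations cannot be told apart, and no p-value is given. Animal 1 contributed 66.0% of all counts, and a gene was called beyond counting error where its own share from animal 1 differed from that by more than an exact binomial (Clopper-Pearson) interval at 95%. By that rule 3 of the 6 were beyond counting error, against a background of 56.6% of detected genes. This share depends on level, as given below. Of the members 2 were higher in animal 1 (background 27.0%) and 1 in animal 2 (background 29.6%).

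For Mir346 the log2 ratio of animal 1 over animal 2 was 0.25 (exact 95% interval 0.20 to 0.31), a 1.19-fold higher level in animal 1. Mir383 was 1.06-fold higher there, at 0.085 (0.056 to 0.113). Its interval is the narrowest of the 6. Mir592 went the other way, at -0.46 (-0.80 to -0.11), or 1.37-fold higher in animal 2. With all reads as the total in place of counts at miRNA genes, its ratio turned to 0.0795 (-0.26 to 0.43), within counting error. The animals' exact intervals in CPM, 33.3 to 45.2 and 44.4 to 63.9, overlapped.

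The other 3 lay within counting error. Mir490 had a log2 ratio of 0.092 (-0.013 to 0.20), but under TMM scaling this became 0.116 (0.011 to 0.22), which is beyond it. Mir488 had a log2 ratio of 0.092 (-0.092 to 0.28). Mir582 had the largest ratio of the 6, -0.68, with an interval from -1.38 to 0.034, so neither its size nor its direction was fixed at this depth. The median absolute log2 ratio was 0.17 for the members and 0.34 for all detected genes.

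**Figure D3:**
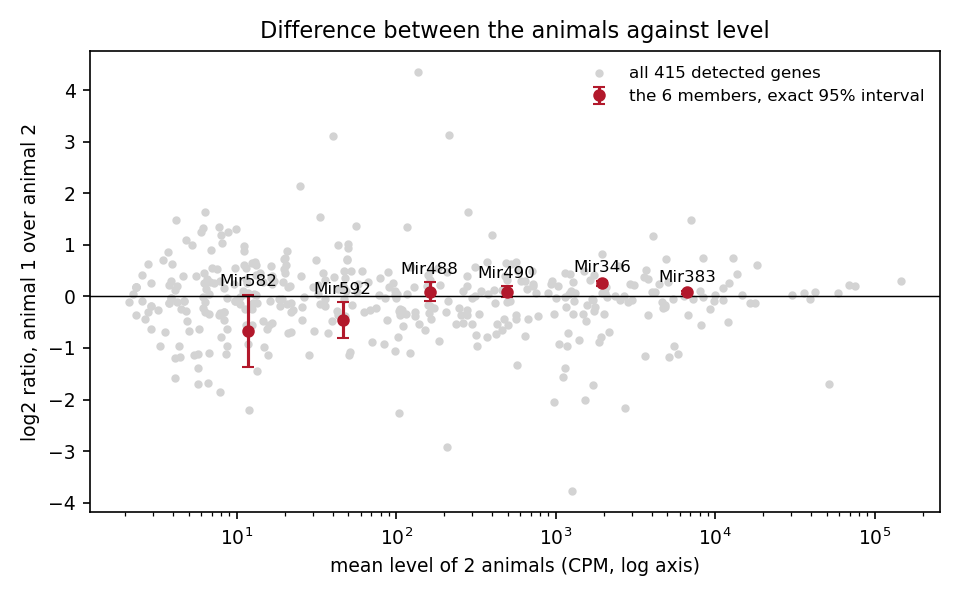
Log2 ratio of animal 1 over animal 2 (y axis) against mean level in CPM (x axis, log). Grey points are the 415 detected miRNA genes, red points the 6 members with exact 95% intervals. The members' ratios run from -0.68 for Mir582 to 0.25 for Mir346, and the intervals widen toward low levels.

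The members were also set beside genes of like level. Between 1000 and 10000 CPM, where Mir383 and Mir346 lie, 81 genes had a median absolute log2 ratio of 0.28. Of these, 87.7% were beyond counting error. Between 100 and 1000 CPM, where Mir490 and Mir488 lie, 100 genes had 0.35, and 80.0% were beyond it. Between 2 and 100 CPM, where Mir592 and Mir582 lie, 215 genes had 0.37, and 30.2% were beyond it. Mir383, Mir346, Mir490 and Mir488 were closer between animals than the median gene of their range, and Mir592 and Mir582 were farther apart.

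The tables count reads on the strand of the gene and on the opposite strand, and all 6 had 0 opposite-strand counts in both animals. Their unstranded counts equalled their counts on the read strand. This includes Mir488, which the antisense Gm37679 crosses. Over all genes, opposite-strand counts summed to 280350 in animal 1 and 149913 in animal 2. The share of all genes without any was not taken, so 6 of 6 has no background here.

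A wider list of miRNA genes in introns of receptor and adhesion genes was set beside the members. The list was set by host symbol, from glutamate, GABA, acetylcholine, serotonin, dopamine and other receptor families and from families such as neurexins, contactins, cadherins, teneurins, Lingo, Slit and Robo. Hosts of members were included, so Mir1904 in Pde4d counts among the listed genes. The list held 38 genes besides the members, of which 11 (28.9%) were detected and 22 had 0 counts in both animals. Of the 722 miRNA genes other than the members in introns of protein-coding genes, 22.3% were detected and 397 had 0 counts in both. Of all 2202 genes 18.8% were detected and 1456 had 0 counts in both. Of the 22 listed genes at 0, 12 carry a Gm symbol, the naming of predicted genes. Over the detected 11 the median of mean levels was 48.7 CPM, against 44.3 CPM for the 161 detected others in introns of protein-coding genes. With Gm symbols left out, 10 of 25 (40.0%) were detected, with a median of 73.8 CPM. The genes compared with were not filtered in this way, so these 2 values have no background here. Median level over the 6 members was 338 CPM in animal 1, against 317 CPM in animal 2. The members had been chosen by name, so this order is a description.

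The 5 highest of these were Mir708, Mir873a, Mir153, Mir1298 and Mir218-2. Mir708, in the teneurin gene Tenm4, stood at 1418 CPM in animal 1 against 1054 CPM in animal 2. That puts it between Mir346 and Mir490. Mir873a, in Lingo2, had 238 and 397 CPM, and Mir153, in the receptor phosphatase gene Ptprn2, had 427 and 136 CPM. Mir1298, in the serotonin receptor gene Htr2c, had 103 and 99.1 CPM. Mir218-2, in Slit3, had 64.1 and 134 CPM, and its 21-base mature sequence also occurs whole in the Mir218-1 hairpin, so its count is uncertain.

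By host family, the acetylcholine receptors gave no listed miRNA other than Mir490. Glutamate receptor genes gave 3 besides Mir346 and Mir592, of which Mir6953 in Grina, a gene for a receptor-associated protein, was detected, at 15.6 and 16.7 CPM. Of 5 in GABA receptor genes none was detected and 4 had 0 counts in both. The contactin, cadherin, neurexin, teneurin, latrophilin and Lingo hosts had 2 of 11 detected. Receptor phosphatase hosts had 1 of 7, Slit and Robo hosts 2 of 3 and the dopamine receptor host 0 of 1. Of the 722 miRNA genes other than the members in introns of protein-coding genes, 22.3% were detected and 397 had 0 counts in both. The counts per family are too small to read against these shares.

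**Figure D4:**
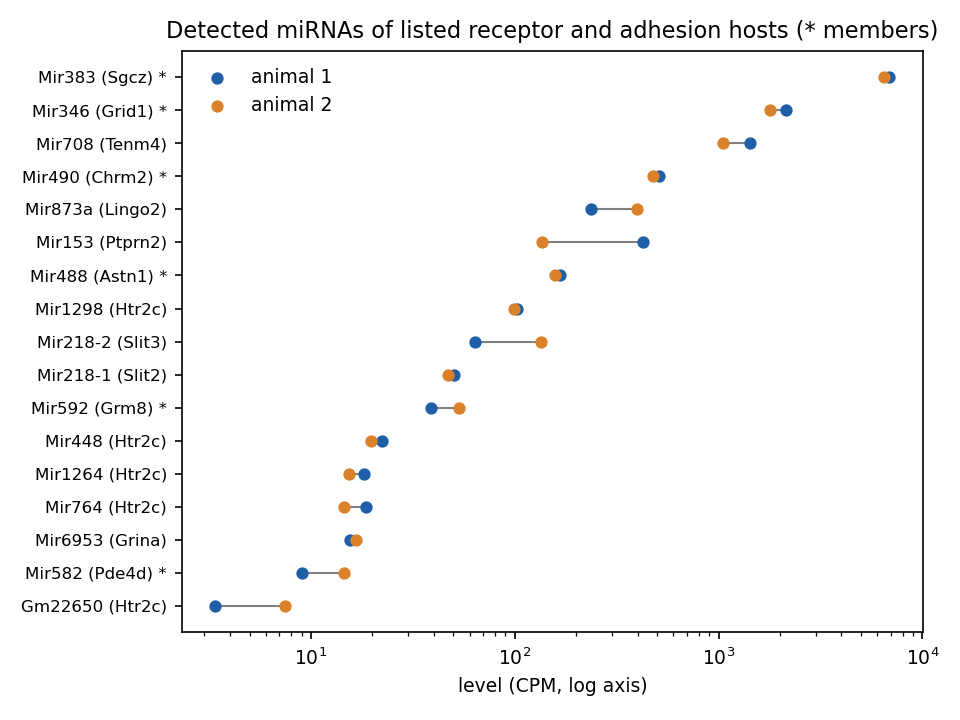
Levels in CPM (log axis) of the 6 members, marked with an asterisk, and the 11 other detected miRNA genes in introns of listed receptor and adhesion genes, with the host in parentheses. A line joins the 2 animals. Mir383 and Mir346 are the highest, and Mir153 has the widest gap between animals, 427 against 136 CPM.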

How the data were processed

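The authors deposited 1 table of raw counts of reads per miRNA gene for each library, with no normalization. Build mm10 and annotation M21 are named per the file headers of the accompanying metadata. The sources used here name no aligner or trimming step and no treatment of reads mapping to several places. The tables have no header, and column 3 was taken as the read strand because it held the larger strand-assigned sum. The 4 summary entries were left out of totals. Reads in the entry for several places were 37.4% and 25.5% of reads. Parental alleles were not separated.

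CPM, ratios and exact intervals were computed in Python 3.11.15 with scipy 1.17.1. Hosts and introns came from GENCODE M21 and sequences from RefSeq (GRCm38.p6), where 968 of 2202 genes matched by symbol. Folding used RNAfold 2.7.2, and scaling alternatives edgeR 4.0.16 (TMM) and DESeq2 1.42.0. The interval rule was also run on simulated counts with set fold changes and counting error only, with no spread between animals. Its outcome is not given here. Other alternatives were the unstranded column, totals without the most abundant gene or with all reads, filters of 10 CPM or of 1 count, pseudocounts of 1 and 5, and leaving out either library; leaving out Gm symbols, Mir1904 or Mir132 from a list was chosen after seeing the data.

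Named genes were the members, other miRNA genes in their hosts, seed partners, the 5 highest of the host list and the genes next to each member in level; Mir6953, the marker genes and those in the closing observations were named besides. Although the rule for members names symbols only, members and lists were chosen with earlier results of these data known.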

Additional observations from a re-analysis of the deposited data

How the results depend on the processing

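A minimum of 10 CPM in both animals left 5 of the 6 members detected, without Mir582. With all reads as the total, 4 members were higher in animal 1 and 0 in animal 2 in place of 2 and 1, and the log2 ratio of Mir592 turned from -0.46 to 0.0795 (exact 95% interval -0.26 to 0.43). That total includes unmapped reads, 23.4% of reads in animal 1 and 47.1% in animal 2. Mir490 passed the counting interval, higher in animal 1, under TMM, DESeq2 size factors, the total without the most abundant gene and all reads. The members' share of counts, 0.935%, was 1.10% without the most abundant gene, 1.00% in the unstranded column and 0.260% of all reads; with 1 animal left out it ran from 0.897 to 0.973%. These moves follow from the changed totals. Of the receptor and adhesion host list, 10 to 16 genes were detected across its alternatives, against 11. Depth limits Mir582 most, at 40 and 33 counts. No paired analysis was possible because both libraries form 1 group.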

Other observations

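The serotonin receptor gene Htr2c, on chromosome X, held more listed miRNA genes than any other host of the list, with 7 in its introns 3 and 5. Of these 5 were detected, against 22.3% of miRNA genes other than the members in introns of protein-coding genes. Mir1298 led; Mir448 stood at 22.4 CPM in animal 1 against 19.7 CPM in animal 2, Mir764 had 18.6 and 14.5 CPM, and Mir1264 had 18.1 and 15.4 CPM. These 4 lay inside counting error between the animals, with log2 ratios of 0.06 to 0.36. Of detected genes between 2 and 100 CPM, where Mir448, Mir764 and Mir1264 lie, 30.2% were beyond counting error. Between 100 and 1000 CPM, where Mir1298 lies, 80.0% were. Gm22650 had 3.40 and 7.46 CPM and was higher in animal 2, on 15 and 17 counts. Mir1912 had 2 and 0 counts, and Gm24627 had 0 in both.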
